A study of Homo sapiens with 4 samples.

Results

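The histone genes of K562 cells were examined as a family in poly(A)-selected libraries from cells with and without the JAZF1-SUZ12 fusion. Members were the protein-coding genes of the count table whose symbols carry a canonical or variant histone H1, H2A, H2B, H3 or H4 prefix, and 90 of 35606 genes met that rule. Of these, 70 were replication-dependent genes of the histone gene clusters and 20 were replacement variants or other genes that lie elsewhere. The class was set by the present or former gene symbol alone, not by a stem-loop, a poly(A) tail or expression through the cell cycle. Genes named with other prefixes, such as MACROH2A1, CENPA and H4-16, were outside the rule.

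The comparison was between 2 libraries labelled as JAZF1-SUZ12 and 2 labelled as mock, all from K562, an established erythroid-type cell line derived from a human chronic myeloid leukaemia. The fusion occurs in endometrial stromal sarcoma and places a stretch of JAZF1 before SUZ12, which belongs to the histone-methylating Polycomb repressive complex 2. The labels do not give the promoter of the construct, the number of clones, the time of expression or what the mock cells carried. Nothing in them says that libraries 1 and 2 came from separate cultures, so p-values measure only the spread between these libraries, which may be technical.

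Replication-dependent histone genes lie in clusters, are transcribed mainly in S phase and are the usual source of the histones that package newly copied DNA. Their messages typically end just after a short stem-loop that binds the stem-loop binding protein SLBP, and they carry no poly(A) tail, whereas replacement variants are made through the cell cycle from ordinary polyadenylated messages. Poly(A) selection therefore favours replacement messages and that part of the replication-dependent messages that carries a tail. Levels given here for cluster genes are not levels of total histone message. Whether the RNA counted carried a tail was not measured.

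The stem-loop is shown for members on which the results below turn, because it is an element by which the 2 classes of message are known to differ. Capitals mark the stem-loop match, and 5 flanking bases on each side are in lower case. Each was read 5′ to 3′ on the transcript strand from the GENCODE 29 transcripts (GRCh38).
H2BC21: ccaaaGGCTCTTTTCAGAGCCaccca
H3C10: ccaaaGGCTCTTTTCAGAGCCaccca
H2BC7: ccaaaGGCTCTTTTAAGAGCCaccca
H4C5: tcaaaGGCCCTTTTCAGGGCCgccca
H4C9: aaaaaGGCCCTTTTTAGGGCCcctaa
H2AC11: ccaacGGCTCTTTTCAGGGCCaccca
H2AX: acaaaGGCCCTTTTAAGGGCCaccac

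The search used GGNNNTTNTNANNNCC on the transcript strand, with the letters of both stem arms required to pair. It matched 31 of 68 replication-dependent members with a gene model (45.6%), 1 of 20 replacement members (5%) and 108 of 19488 other protein-coding genes (0.554%). The replacement match was H2AX, the variant that is phosphorylated at DNA breaks, whose gene is known to give both a stem-loop and a polyadenylated message. The 32 matches used 7 different sequences. The sequence of H2BC21 and H3C10 above was shared by 17 members of the H2A, H2B and H3 families, and that of H2BC7 by 5 members of H2B and H3. All 7 matched H4 members had a match that opened with GGCCC, as did H2AX, and the other 24 opened with GGCTC. A missing match says only that these letters were not in the annotated transcripts: 30 replication-dependent members had models that hold coding sequence only, so that no search of their ends was possible.

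Among the members, replacement variants fell more often than they rose, while every call among replication-dependent genes was higher in JAZF1-SUZ12. Of the 90 members, 56 had enough counts to be tested and 34 did not. By edgeR's quasi-likelihood test with Benjamini-Hochberg adjustment over all 14750 genes tested, 10 members were higher and 3 lower at an adjusted p under 0.05. The same call was made for 24.7% of the genes in the whole table, 13.3% as higher and 11.4% as lower. The changes were small: apart from H2BC7 and H4C5, the called members lay between -0.30 and 0.32 on the log2 scale.

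Of the 70 replication-dependent members, 50 were tested, 9 were higher (18%, near the 13.3% of all genes) and 0 were lower. At an unadjusted p under 0.05, edgeR placed 14 of the 50 higher and 2 lower (H2BC12 and H2AC16), and DESeq2 placed 9 higher and 1 lower. The share of all genes at that unadjusted threshold is not given here. These unadjusted counts therefore cannot be set against the 13.3%, which is a share after adjustment. After adjustment DESeq2 called 6 higher and 0 lower, where it called 9.19% of all genes higher and 7.13% lower (16.3% in either direction). The median log2 fold change of these 50 was 0.18, against 0.0032 over all genes tested, and 35 (70.0%) were above 0, against 50.5% of all genes. In 22 of the 50 (44.0%) both JAZF1-SUZ12 libraries lay above both mock libraries and in 5 (10%) below, where over all genes tested 33.8% lay above and 27.2% below. Of the 20 replacement members, 6 were tested, 3 were lower and 1 was higher, with a median log2 fold change of -0.15. Since these 6 and 50 are the members that passed the filter on low counts, the counts describe them and not the whole family. In the authors' deposited table, 3 replacement members were lower and 0 higher of 6 with an adjusted p, and none of 52 replication-dependent members was called, where 8.5% of all genes there were called, 4.93% higher and 3.57% lower. The lowest adjusted p of a replication-dependent member in the authors' deposited table was 0.0576, that of H2AC11.

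**Figure D1:**
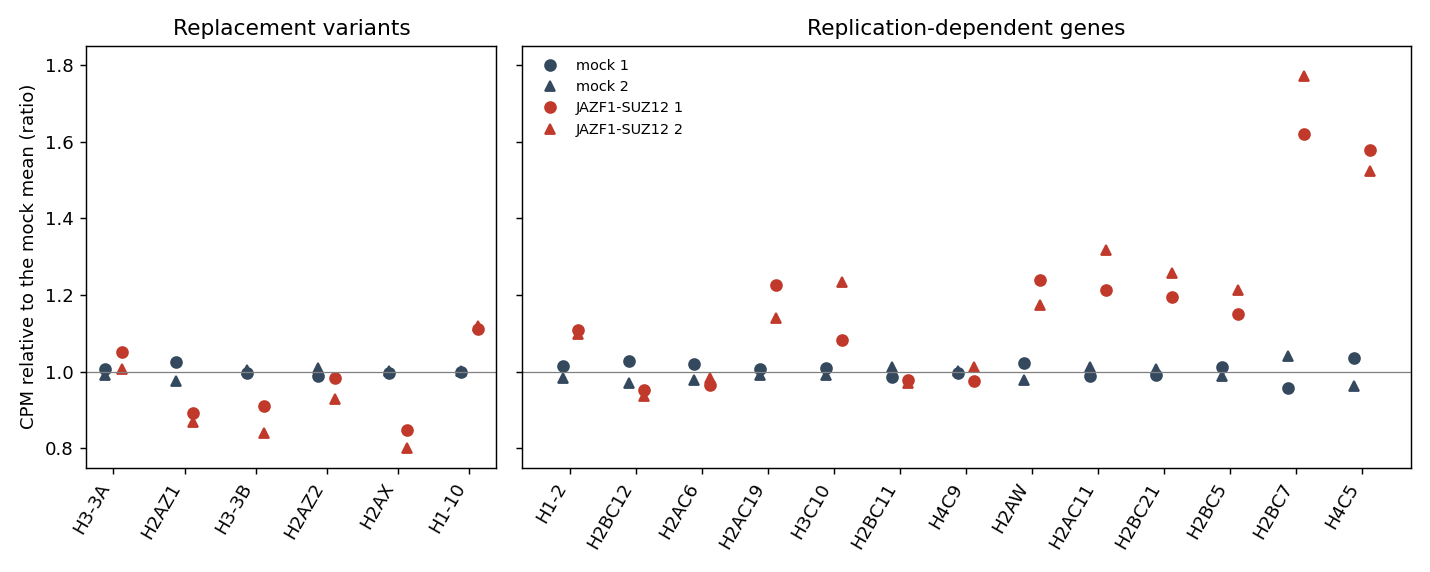
CPM of each library divided by the mean of the mock libraries, for the 6 replacement members tested and the 13 replication-dependent members described by level or call, with circles for library 1 and triangles for library 2 of each group. H2AX, H2AZ1 and H3-3B lie below 1 in both JAZF1-SUZ12 libraries, and H2BC7 and H4C5 lie farthest above 1.

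In total, replication-dependent members held 2122 and 2145 CPM (counts per 1000000 of the library total) in JAZF1-SUZ12 libraries 1 and 2 and 1997 and 1955 in mock libraries 1 and 2, a log2 ratio of the means of 0.11. Replacement members held 2271 and 2176 CPM with the fusion and 2346 and 2318 in mock, a log2 ratio of -0.07. The groups did not overlap in either sum. Summed over all 90 members, the values were 4393 and 4321 CPM against 4343 and 4273, which overlapped, so the histone total took 0.427% to 0.439% of the counts in every library. The share of it that came from replication-dependent genes was 48.3% and 49.6% with the fusion and 46.0% and 45.8% in mock. Among the replication-dependent families the log2 ratio of the summed CPM ran from 0.04 for H2B and 0.08 for H4 through 0.15 for H1 and 0.16 for H2A to 0.20 for H3. By cluster, the sum over 12 genes of the HIST2 cluster on chromosome 1 was 245 and 243 CPM against 206 and 207, and that over the 3 genes of HIST3 was 82.8 and 80.6 against 68.1 and 65.6. The 55 genes of HIST1 on chromosome 6 summed to 1794 and 1821 against 1723 and 1682. In whole-culture RNA, fewer cells of one kind, such as cells in S phase, and less RNA per cell cannot be told apart.

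**Figure D2:**
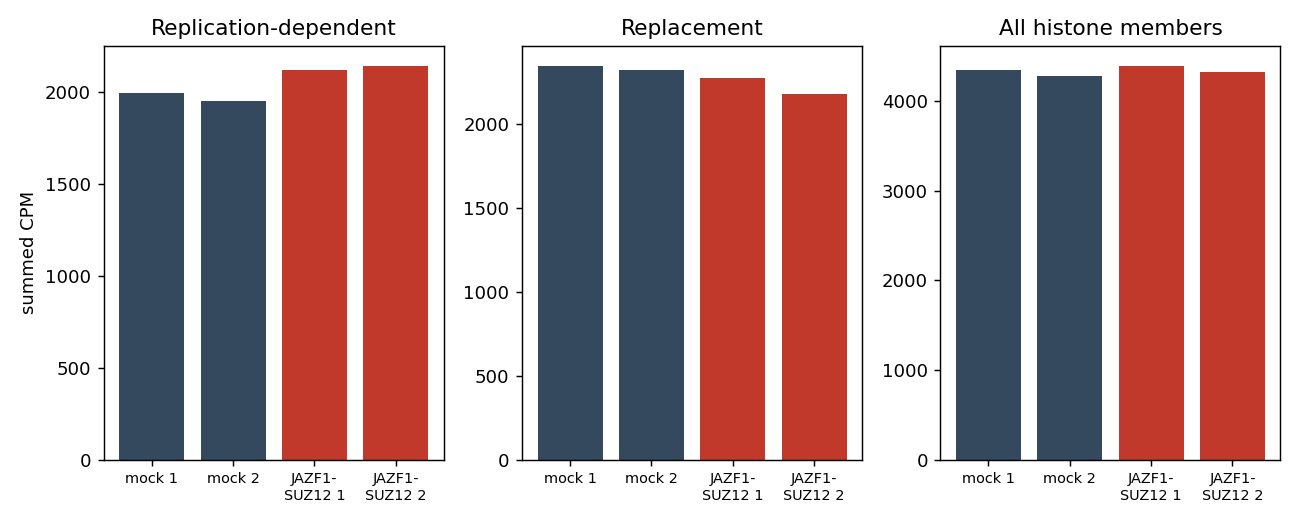
Summed CPM in each library for the 70 replication-dependent members, the 20 replacement members and all 90, each panel with its own axis from 0. The replication-dependent bars of JAZF1-SUZ12 (2122 and 2145) stand above those of mock, the replacement bars stand below them, and the totals overlap.

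H2AX had the lowest adjusted p among the members. It was measured at 191 and 181 CPM with the fusion and at 225 and 226 in mock. Both JAZF1-SUZ12 libraries were below both mock libraries, and the log2 fold change was -0.30 (SE 0.050; adjusted p = 0.000377, edgeR). H2AX lies at chr11:119093854-119095467 on the minus strand.

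H2AZ1 encodes H2A.Z.1, a variant placed at promoters and regulatory elements. It was measured at 428 and 417 CPM with the fusion and at 491 and 468 in mock. The groups did not overlap, and the gene fell by 0.20 on the log2 scale (SE 0.044; adjusted p = 0.00317, edgeR). Its paralogue H2AZ2, which encodes H2A.Z.2, had 215 and 203 CPM against 216 and 220. Those values also did not overlap, but the log2 difference of -0.09 did not pass the test (SE 0.050; adjusted p = 0.225, edgeR). Without JAZF1-SUZ12 library 1, H2AZ2 passed it at -0.14 (adjusted p = 0.0448, edgeR). Whether the 2 paralogues differ in their change was not tested.

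H3-3A and H3-3B encode the same replacement histone, H3.3, from different chromosomes. H3-3B was measured at 347 and 320 CPM with the fusion and at 380 and 382 in mock, with no overlap, a fall of 0.21 on the log2 scale (SE 0.049; adjusted p = 0.00476, edgeR). H3-3A was the highest member in CPM, at 893 and 856.9 against 856.6 and 843. The JAZF1-SUZ12 libraries were barely above the mock libraries, and the log2 difference of 0.02 did not pass the test (SE 0.042; adjusted p = 0.768, edgeR). Per length, on the longest GENCODE 29 transcript, H3-3A had a mean of 463 CPM per kilobase and H3-3B 128.

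H1-10, the linker histone H1.10, was the 1 replacement member called higher, with 197 and 199 CPM against 178 and 178. The groups did not overlap, and the log2 fold change was 0.14 (SE 0.047; adjusted p = 0.0444, edgeR). That call was lost with DESeq2 (adjusted p = 0.0849), with no filter on low counts (edgeR, adjusted p = 0.0605) and when any 1 of the 4 libraries was left out. Of the 20 replacement members, 13 held at most 3 counts in any library, many of them testis variants. In the authors' deposited table, H2AX (log2 fold change -0.31, adjusted p = 0.00129), H2AZ1 (-0.22, 0.00391) and H3-3B (-0.26, 0.00618) were the replacement members called.

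The replication-dependent signal was concentrated in a few genes. The 8 with the highest mean CPM made up 74.2% to 77.1% of the summed CPM of the 70 in each library, and H1-2 alone made up 31.9% to 33.1%. H1-2 encodes the linker histone H1.2 and is 1 of 5 cluster genes listed here as known to give polyadenylated messages. At the other end, 10 replication-dependent members had no count in any library and 4 more had at most 3.

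The 5 listed genes showed calls in 3 cases. H1-2 was measured at 702 and 696 CPM with the fusion and at 643 and 624 in mock, with no overlap (log2 fold change 0.12, SE 0.041; adjusted p = 0.0404, edgeR). It kept the call only without JAZF1-SUZ12 library 2 among the 4 fits with a library left out, with values from 0.09 to 0.14. H2BC21, which encodes an H2B of the HIST2 cluster, was at 72.6 and 76.4 CPM against 60.2 and 61.2 (0.27, SE 0.059; adjusted p = 0.0030, edgeR).

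H2BC5, an H2B gene of HIST1, was at 50.2 and 53.0 CPM against 44.1 and 43.2 (0.22, SE 0.065; adjusted p = 0.0205, edgeR). Its groups did not overlap either, but the call was lost with DESeq2 (adjusted p = 0.121) and in every fit without 1 library except that without JAZF1-SUZ12 library 1. The other two of the list ran slightly below mock without passing the test. H2BC12 was at 351 and 345 CPM against 379 and 357 (-0.10, SE 0.045; adjusted p = 0.115, edgeR), all fusion values lying below mock. Without JAZF1-SUZ12 library 1 H2BC12 passed it at -0.13 (adjusted p = 0.0428, edgeR). H2AC6 overlapped between groups at 148 and 151 CPM against 157 and 150.5 (-0.06, SE 0.050; adjusted p = 0.438, edgeR). Summed over the other 65 replication-dependent genes, CPM was 798 and 823 against 714 and 719, a log2 ratio of 0.18, larger than the 0.11 over all 70.

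Among replication-dependent H2A and H2B genes outside that list, H2AC11 had the lowest adjusted p. H2AC11 lies at chr6:27133042-27135291 and was measured at 73.3 and 79.5 CPM with the fusion and at 59.7 and 61.0 in mock. The groups did not overlap, with a log2 fold change of 0.32 (SE 0.061; adjusted p = 0.00117, edgeR). H2BC7 had the largest difference of any called member: 207 and 320 counts (11.99 and 13.1 CPM) against 145 and 164 (7.09 and 7.70 CPM), a log2 fold change of 0.74 (SE 0.14; adjusted p = 0.00137, edgeR). H2AC11, H2BC7 and H2BC21 kept their calls in each fit that left out 1 library and with DESeq2 as run here. None of them was called in the authors' deposited table (adjusted p there = 0.0576, 0.0710 and 0.129).

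H2AW, an H2A gene of the HIST3 cluster, was at 78.0 and 73.9 CPM against 64.3 and 61.6 (0.25, SE 0.062; adjusted p = 0.00778, edgeR). It lost the call without mock library 2, at 0.21 (adjusted p = 0.0645, edgeR). H2AC19, an H2A gene of HIST2, was at 101 and 93.7 CPM against 82.9 and 81.7 (0.22, SE 0.060; adjusted p = 0.0138, edgeR). Neither gene overlapped between groups. The call of H2AC19 was lost without JAZF1-SUZ12 library 1 (0.15, adjusted p = 0.115, edgeR) and without mock library 2 (0.20, adjusted p = 0.0663, edgeR). Its near-identical neighbour H2AC18 was listed at 0 in every library, and how reads of the pair were assigned is not given in the sources used here, so the value of H2AC19 is uncertain.

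Among replication-dependent H3 and H4 genes, which encode the core tetramer, 1 of each family was called. H3C10 was at 76.8 and 87.6 CPM with the fusion and at 71.6 and 70.2 in mock, which did not overlap (0.20, SE 0.064; adjusted p = 0.0348, edgeR). JAZF1-SUZ12 library 2 lay well above library 1, and without it the log2 difference was 0.11 (adjusted p = 0.403, edgeR). The call was also lost without mock library 1 (0.20, adjusted p = 0.0894, edgeR) and without mock library 2 (0.17, adjusted p = 0.139, edgeR). DESeq2 did not call H3C10 (adjusted p = 0.118). H4C5 was measured at 158 and 216 counts (9.15 and 8.84 CPM) against 123 and 119 (6.02 and 5.59 CPM). Its groups were well apart, with a log2 fold change of 0.61 (SE 0.16; adjusted p = 0.0126, edgeR), which DESeq2 did not call (adjusted p = 0.0651). H4C9, the second H4 gene shown by its stem-loop above, overlapped between groups at 68.8 and 71.5 CPM against 70.4 and 70.8 (-0.03, SE 0.058; adjusted p = 0.762, edgeR). With offsets for GC content and length its sign turned, to 0.02.

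Copies that share sequence could not be separated. H3C14 and H3C15 had identical values in every library, from 4.67 to 5.54 CPM each. H4C14 and H4C15 varied in opposite senses between replicates: H4C14 was at 32.8 and 23.0 CPM in the JAZF1-SUZ12 libraries and H4C15 at 18.4 and 30.1, while their sum was 51.2 and 53.0 against 44.4 and 45.2 in mock. Neither copy was called alone (adjusted p = 0.199 and 0.538, edgeR). When the copies were summed before the fit, a choice made after seeing these values, the pair was higher (log2 fold change 0.20, SE 0.065; adjusted p = 0.0351, edgeR).

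**Figure D3:**
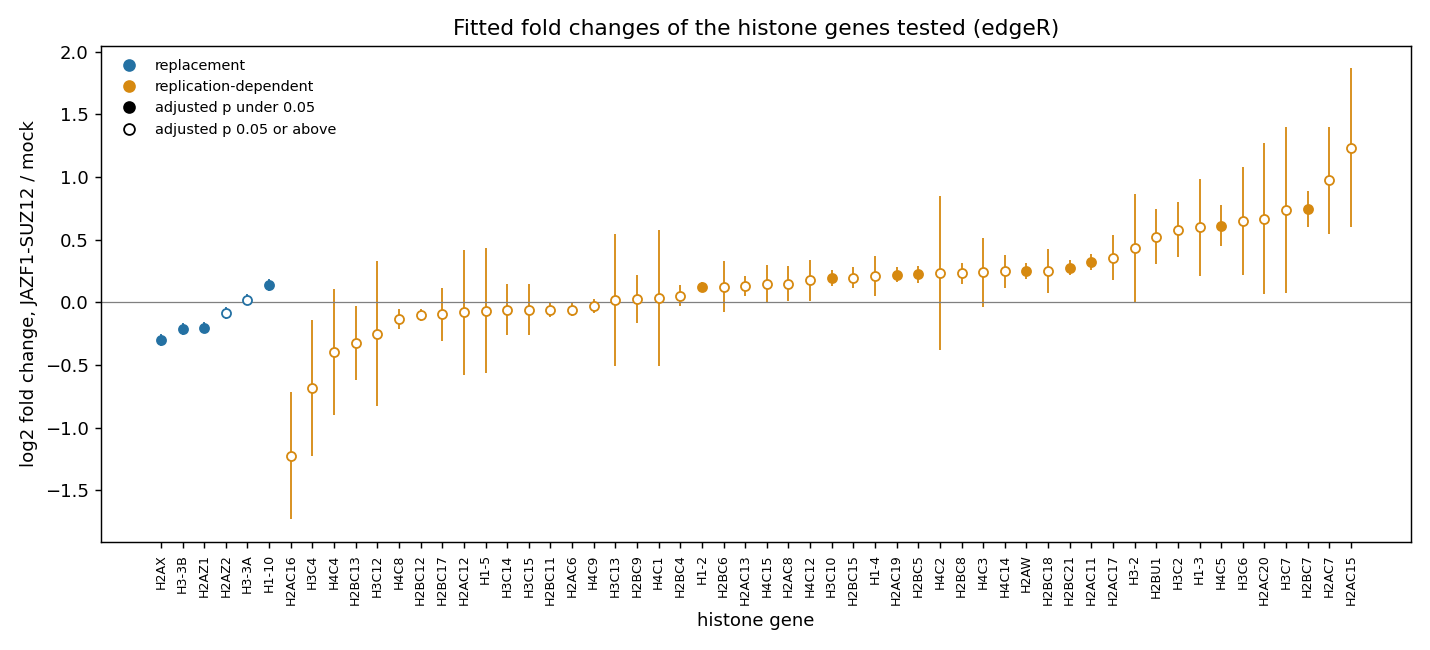
Fitted log2 fold changes (JAZF1-SUZ12 against mock, edgeR) of the 56 members tested, with bars of 1 standard error, and filled points for an adjusted p under 0.05. The 3 filled points below 0 are the replacement members H2AX, H3-3B and H2AZ1, and H2BC7 is the filled point farthest above 0.

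The remaining 41 replication-dependent members tested did not pass the threshold. H2BC8 came nearest, at 32.8 and 31.7 CPM against 25.5 and 28.4 (0.23, SE 0.084; adjusted p = 0.0526, edgeR), followed by H3C2 (0.58, SE 0.22; adjusted p = 0.0617, edgeR). The extremes of the fitted values were low in counts. H2AC15 had 20 and 23 counts against 15 and 3 (1.23, SE 0.63; adjusted p = 0.174, edgeR), and H2AC16 had 9 and 14 against 32 and 21 (-1.22, SE 0.51; adjusted p = 0.0907, edgeR). At such counts differences of this size were not distinguishable from the spread between libraries.

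**Figure D4:**
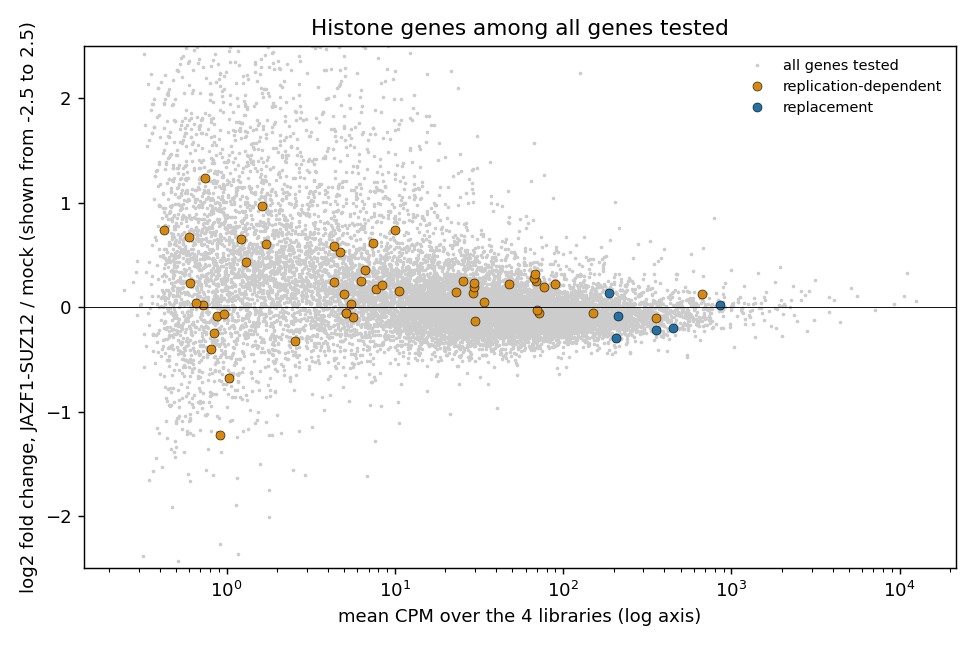
Log2 fold change against mean CPM (log axis) for all 14750 genes tested in grey, with replication-dependent members in orange and replacement members in blue. The replacement members tested all lie at 188 CPM or more, whereas replication-dependent members run from below 1 to 666 CPM and lie inside the spread of other genes.

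The level of a replication-dependent gene varied with the annotated end of its transcript. In GENCODE 29, which is not stated to be the authors' annotation, 22 members had a transcript that runs more than 100 bases beyond the stem-loop, 9 had one that ends nearer to it, 30 had coding sequence only, 7 had no match and 2 had no model. Mean CPM per kilobase had a median of 10.98 in the extended class, 5.21 in the class that ends near the stem-loop and 1.48 in the class of coding sequence only. In CPM, 12 of the 22 extended members were above 10, compared with 4 of 9 and 2 of 30. These last 2 were H1-2 and H2BC12, the replication-dependent members with the highest and second highest level, so high levels were also seen outside the extended class. The levels are sums over whichever transcripts the authors counted, and how far that choice set these levels was not tested.

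A poly(A) signal, AATAAA or ATTAAA within the last 50 bases of the longest transcript on its own strand, was present in 18 of 22 extended members (81.8%), 4 of 9 that end near the stem-loop (44.4%) and 0 of 30 with coding sequence only. It was present in 14 of 20 replacement members (70.0%) and in 72.7% of 19488 other protein-coding genes. Models of coding sequence only hold almost no untranslated sequence, so the 0 of 30 does not show that those genes lack a signal. Of the stem-loops shown, H2AC11, H2BC21, H4C5, H3C10 and H2BC7 lie 1761, 1729, 1022, 769 and 732 bases before the end of the transcript, and that of H2AX 1044 bases. Anywhere after the stem-loop, AATAAA was present in H2AC11, H2BC21, H4C5 and H3C10, and ATTAAA in H2AX. In H2BC7 and H4C9 neither was present after it. Calls were made in 6 of 21 extended members tested, 2 of 6 that end near the stem-loop and 1 of 17 with coding sequence only, each higher in JAZF1-SUZ12, beside 13.3% of all genes.

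**Figure D5:**
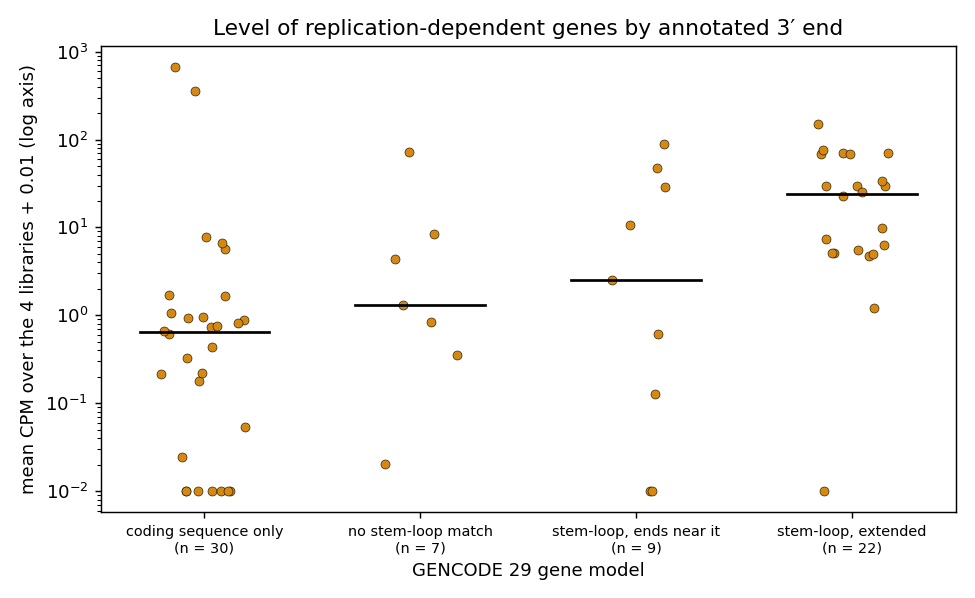
Mean CPM over the 4 libraries plus 0.01 (log axis) of the 68 replication-dependent members with a GENCODE 29 model, by the annotated 3′ end, with bars at the medians (0.631, 1.299, 2.54 and 24.2 CPM from left to right). Genes with an extended transcript lie highest as a class, and 2 genes with coding sequence only, H1-2 and H2BC12, lie above all of them.

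Promoters of the 2 classes were compared in RefSeq windows of 300 bases around the start of transcription (GRCh38.p14), of which 66 matched 62 replication-dependent members and 19 matched 15 replacement members. Motifs were searched on both strands. TATAAA, the core of a TATA box, was in 68.2% of replication-dependent windows, 26.3% of replacement windows and 11.5% of all 35116 windows. CCAAT was in 86.4%, 84.2% and 34.6%. ATTTGCAT, the octamer bound by OCT1, was in 40.9%, 5.26% and 1.77%. The octamer was in 11 of 15 H2A and 15 of 19 H2B windows, in 1 of 14 H3 windows and in 0 of 6 H1 and 0 of 12 H4 windows. CCAAT was in all H1, H2A, H2B and H3 windows but in 3 of 12 H4 windows. A match describes letters only and does not show a bound site.

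Several replication-dependent genes, mostly an H2A with an H2B, lie head to head and share the stretch between their starts. Such pairs, with starts within 1000 bases, numbered 12, and in 10 both genes were tested. H2BC17 counts in 2 of them, with H2AC17 and with the H3 gene H3C12. In 6 of the 10 the fitted changes had the same sign, in 4 one gene was called and in 0 were both. Over all genes tested, 24.7% were called in either direction and 50.5% had a change above 0. Whether these pairs differ from other genes in sign or calls was not tested. H2AC11 and H2BC11 start 292 bases apart and had similar levels in mock, at 59.7 and 61.0 CPM and at 72.0 and 73.9. With the fusion H2AC11 rose as given above, while H2BC11 was at 71.4 and 70.8 CPM (log2 difference -0.06, SE 0.058; adjusted p = 0.512, edgeR). The difference between the 2 changes was not tested.

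H2BC7 and H2AC7 start 277 bases apart and had fitted changes of 0.74 and 0.97, the latter not passing the test (SE 0.42; adjusted p = 0.109, edgeR). H2AW and H2BU1, 234 bases apart, had 0.25 and 0.52 (the latter SE 0.22; adjusted p = 0.09995, edgeR). The window of H2AC11 (GRCh38.p14 chr6:27132793-27133092, plus strand) is shown because it lies in the gap to H2BC11, and that of H2AX (chr11:119095416-119095715, minus strand) because this replacement gene, the member with the lowest adjusted p, also holds TATAAA and CCAAT. Capitals mark matches of the motifs searched, on either strand.
H2AC11: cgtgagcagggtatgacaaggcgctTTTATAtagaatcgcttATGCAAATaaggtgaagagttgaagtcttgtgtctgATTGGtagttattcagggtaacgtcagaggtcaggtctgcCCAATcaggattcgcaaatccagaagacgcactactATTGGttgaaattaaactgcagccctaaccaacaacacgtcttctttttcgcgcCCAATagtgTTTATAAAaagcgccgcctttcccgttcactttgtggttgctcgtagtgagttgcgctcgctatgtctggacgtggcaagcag
H2AX: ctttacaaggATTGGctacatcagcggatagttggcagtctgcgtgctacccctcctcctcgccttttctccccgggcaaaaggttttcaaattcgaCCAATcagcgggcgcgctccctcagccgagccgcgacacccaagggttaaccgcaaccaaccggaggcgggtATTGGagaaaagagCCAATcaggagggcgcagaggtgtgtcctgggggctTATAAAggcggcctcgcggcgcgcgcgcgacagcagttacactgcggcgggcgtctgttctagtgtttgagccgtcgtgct

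Genes that act on histone messages, on histone proteins or in S phase fell more often than they rose. Of 20 factors that make or process histone messages, 4 were lower and 1 higher, with a median log2 fold change of -0.10, against 11.4% lower and 13.3% higher over all genes. SLBP, which binds the stem-loop, was at 122 and 112 CPM against 135 and 131 and fell by 0.21 on the log2 scale (SE 0.058; adjusted p = 0.0158, edgeR). SRRT, which encodes ARS2 and links the cap-binding complex to histone message processing, fell by 0.28 (adjusted p = 0.00114, edgeR). NCBP1, a subunit of the cap-binding complex, fell by 0.22 (adjusted p = 0.00832, edgeR). CPSF3, the endonuclease that cuts histone and polyadenylated messages, fell by 0.16 (adjusted p = 0.0305, edgeR). That call was lost in each fit without 1 library (log2 fold changes of -0.18 to -0.16) and with DESeq2. It was also lost when only total counts were used for scaling. Offsets for GC content and length, with or without the replicate number as a block, removed it too. GON4L was the 1 factor called higher (0.21, adjusted p = 0.0144, edgeR), a call lost without mock library 1 (0.16, adjusted p = 0.164, edgeR). The calls of SLBP and NCBP1 were also lost without JAZF1-SUZ12 library 2 (-0.13 and -0.16, adjusted p = 0.190 and 0.0787, edgeR) and without mock library 1 (-0.19 each, adjusted p = 0.0681 and 0.0539, edgeR). These 2 omissions left fewer of the 20 factors called, and the share of all genes called in those fits is not given.

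Of 24 histone chaperones and import factors, 10 were lower and 1 higher, with a median of -0.12. For this list and the S-phase genes below, the shares over all genes tested were 11.4% lower and 13.3% higher. IPO4, an importin that carries H3 and H4, fell by 0.31 (adjusted p = 0.00224, edgeR), and TONSL, which binds newly made H3-H4, fell by 0.29 (adjusted p = 0.00132, edgeR). HIRA and DAXX, which belong to separate routes for depositing H3.3, had log2 fold changes of -0.20 and -0.21 (adjusted p = 0.00529 and 0.0113, edgeR). SUPT16H, a subunit of the H2A-H2B chaperone FACT, fell by 0.19 (adjusted p = 0.0117, edgeR). Of 20 S-phase genes, 8 were lower and 1 higher, with a median of -0.12. UHRF1, which couples DNA methylation to replication, fell by 0.35 (adjusted p = 0.000179, edgeR). RRM2, a ribonucleotide reductase subunit, fell by 0.23 (adjusted p = 0.00164, edgeR), and PCNA, the replication clamp, fell by 0.21 (adjusted p = 0.00371, edgeR). The helicase subunits MCM4 and MCM3 had log2 fold changes of -0.20 and -0.16 (adjusted p = 0.00275 and 0.0181, edgeR). The call of DAXX was lost without mock library 2 (-0.17, adjusted p = 0.0875, edgeR), that of SUPT16H without JAZF1-SUZ12 library 2 (-0.14, adjusted p = 0.0848, edgeR) and mock library 1 (-0.18, adjusted p = 0.0594, edgeR), and that of MCM3 without JAZF1-SUZ12 library 2 (-0.12, adjusted p = 0.142, edgeR). Whether the lower levels of these lists had a part in the histone differences was not tested. Without JAZF1-SUZ12 library 2 or mock library 1 the S-phase calls were fewer. Those of the chaperone list were fewer without JAZF1-SUZ12 library 2 or either mock library. The share of all genes called in those fits is not given.

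As a check of the labels, JAZF1 was at 33.3 and 29.9 CPM in the JAZF1-SUZ12 libraries and at 0.587 and 1.27 in mock, and SUZ12 at 275 and 269.5 against 136 and 131. The 4 libraries held 17260936 to 24423028 estimated counts. Although the source label gives uterus, all 10 erythroid markers examined were tested. They summed to 10541 to 10629 CPM with the fusion and 8869 to 9139 in mock. Of these 10, 5 were higher and 0 lower, where 13.3% of all genes tested were higher and 11.4% lower. Of 10 endometrial stromal markers, 5 were tested, and LUM was at 0 in all libraries. COL1A1 was higher, and the other 4 tested were not called. The 10 summed to 33.8 and 35.9 CPM against 17.3 and 16.2, of which COL1A1 held 21.4 and 21.3 against 5.18 and 6.39. The part of either difference in the histone values was not tested.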

How the data were processed

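Poly(A)-selected, directional libraries were made from K562 RNA, per the labels' protocols. The authors deposited estimated counts per gene, not normalized, of which 29.9% to 33.6% were not whole (tolerance 1e-06). The submitters' processing notes name fastp 0.20.1, FastQC 0.11.7, MultiQC 1.5, kallisto 0.46.2, DESeq2 1.30.1 and the build hg38. The annotation and the use of strand in counting are not given in the sources used here, so overlapping and near-identical genes are uncertain. The authors also deposited a comparison of the groups. It holds a mean signal, which is a mean of normalized counts, per the file headers. It also holds a log2 fold change with its error, per the file headers, a test statistic (score), per the file headers, and a p-value and adjusted p-value, per the file headers.

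Counts were rounded to whole numbers. Genes were kept with filterByExpr, scaled with TMM and compared by group alone in edgeR 4.0.16 (R 4.3.3), two-sided, with Benjamini-Hochberg adjustment at 0.05. CPM is counts per 1000000 of the library total. Positions and transcripts came from GENCODE 29 (GRCh38), in which 88 members have a model. Promoters came from RefSeq. Alternatives were DESeq2 1.42.0, limma-voom (limma 3.58.1), other scalings and filters, GC and length offsets, a replicate block and leaving out each library. In simulated counts, edgeR recovered 190 of 200 genes changed 2-fold among 14481, with 7 false calls, and DESeq2 178, with 1. The changed genes were drawn only from those above a minimum mean count. Changes smaller than 2-fold, such as those of the members called, were not simulated. Genes were named by rule: replacement members averaging 10 counts or more, the 8 replication-dependent members with the highest mean CPM and up to 10 called per direction, and up to 5 called per list. H2BC8, H3C2, H2AC7, H2AC15, H2AC16, H2AC17, H2BC17, H3C12, H2BU1 and the near-identical copies were chosen after their values were seen. The members and lists were chosen with earlier results of these data known.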

Additional observations from a re-analysis of the deposited data

How the results depend on the processing

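The calls of H2AX, H2AZ1, H3-3B, H2AC11, H2BC7 and H2BC21 held in all alternatives run. Of these, the authors' deposited table called only H2AX, H2AZ1 and H3-3B. Members called higher numbered 10, and 6 with DESeq2. Replacement members called higher numbered 1, and 0 with DESeq2 and with no filter, where more low genes entered and the replacement median moved from -0.15 to -0.064. Replication-dependent members called lower numbered 0, and 1 (H2BC12) with GC and length offsets plus the replicate block. The log2 ratio of summed replication-dependent CPM was 0.11, and 0.18 without the known polyadenylated genes. H4C9 turned from -0.03 to 0.023 with GC and length offsets, and to 0.021 with the block added. H3-3A turned from 0.021 to -0.027 without JAZF1-SUZ12 library 1 and to -0.0012 without mock library 2, its highest value with 1 library left out being 0.062. The causes were not tested.

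With 1 library left out, the lone sample of its group was assumed to vary like the others. The share of all genes called in each of these fits is not given. Whether the sets below lost or gained more calls than other genes therefore cannot be read from their counts. Members called then numbered 10 to 14 (13 with all 4 libraries), higher 7 to 9, lower 3 to 5. Replication-dependent members called higher numbered 7 to 9 and lower 0 to 1, and replacement members called higher 0 and lower 3 to 4. Calls numbered 1 to 6 among histone message factors, 6 to 12 among chaperones and 4 to 9 among S-phase genes. The replication-dependent median ranged from 0.11 to 0.21 and the replacement median from -0.19 to -0.088. The summed ratios ranged from 0.10 to 0.13 and from -0.10 to -0.04.

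With the replicate number as a block, 14 members were called (11 higher and 3 lower), and the share of all genes called in that fit is not given. Little pairing by number was seen: the deviations of same-numbered libraries correlated at r = 0.04 over 11826 genes, which are not independent replicates. A pairing weaker than the spread between libraries could go unseen. With 2 libraries a group and at most 3 counts in 27 of 90 members, changes in the lowest members were not detectable.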

Other observations

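Beside the protein-coding members, 38 rows with histone symbols were pseudogenes or other transcripts. Of these, 23 had no count in any library and 27 had at most 3, and 6 were tested. By edgeR 0 of the 6 were called, and 0 were under an unadjusted p of 0.05, as with DESeq2 and limma-voom (0 of 6 each). H2BC20P, the most abundant, was at 19.7 and 20.1 CPM with the fusion and 16.2 and 17.8 in mock (log2 difference 0.21, SE 0.10; adjusted p = 0.164, edgeR), and H2BC19P at 11.9 and 16.7 against 14.8 and 15.9.

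Histone genes with other symbols showed no call. MACROH2A1, which encodes a variant with a large macro domain, was at 244 and 236 CPM with the fusion and 241 and 245 in mock (-0.04, SE 0.047; adjusted p = 0.588, edgeR). MACROH2A2 had a mean of 2.39 CPM against 1.94 (0.29, SE 0.32; adjusted p = 0.558, edgeR). CENPA, the centromeric H3, had a mean of 29.7 CPM against 31.2 (-0.09, SE 0.083; adjusted p = 0.467, edgeR). H4-16, an H4 gene outside the large clusters, held at most 2 counts in any library.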
